A study of Mus musculus with 6 samples.

Results

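Gluconeogenesis and its restraint by insulin through the transcription factor FoxO1 were examined in mouse liver through 9 genes: Pck1, G6pc and Fbp1, which encode enzymes of glucose production, Foxo1 and its coactivator gene Ppargc1a, the insulin receptor gene Insr, its docking proteins' genes Irs1 and Irs2, and Igfbp1, a FoxO1 target gene. They were matched by symbol, from a list drawn up with earlier results of these data known, and all 9 were found among the 45777 genes of the count table and had enough reads to be tested. Bulk liver RNA-seq was compared between 3 LT mice and 3 Fpn-LKO mice, all male, all on a C57BL/6 background and all fed a high-fat diet (HFD). LT mice were Fpn fl/fl littermates, which carry the floxed Slc40a1 alleles without Cre, and Fpn-LKO mice were Alb-Cre; Fpn fl/fl. The floxed allele came from 129S cells and was present in both groups. Cre was driven by the albumin promoter, which is active in hepatocytes, so the other cells of the liver keep the gene. The study's methods give the age of LT and Fpn-LKO mice at the start of the diet as 8 weeks, whereas age, feeding state and the hour at tissue collection are not given in the sources used here. All 6 libraries carry the same batch label, and p-values measure the spread between these 6 libraries.

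During fasting the liver makes glucose from lactate, glycerol and amino acids. Pck1 catalyses the step from oxaloacetate to phosphoenolpyruvate, Fbp1 hydrolyses fructose 1,6-bisphosphate, and G6pc releases free glucose from glucose 6-phosphate. In the fasted state FoxO1 sits in the nucleus and, together with PGC-1α, the product of Ppargc1a, raises transcription of these enzymes, of Igfbp1 and of Irs2. After feeding, insulin binds its receptor, the IRS proteins pass the signal to PI3K and AKT, and AKT phosphorylates FoxO1, which then leaves the nucleus. That switch acts on the protein, so the mRNA level of Foxo1 is not a measure of FoxO1 activity, whereas the target genes respond to it.

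The stretches of DNA in front of the members were searched for the letters to which FoxO factors are known to bind, since FoxO1 is known to act directly on several of them. The window was the 250 bases before the RefSeq start site (GRCm38.p6), which were given for 8 of the 9 members, all but Insr. The letters searched, on both strands, were the insulin response core CAAAACA, read as TGTTTTG from the opposite strand, and the forkhead element GTAAACA, read as TGTTTAC from the opposite strand. The pair have no match in common. The core was found in 4 members, G6pc, Irs1, Irs2 and Igfbp1, and the forkhead element in none. Among 32851 mouse promoters of the same length, 5.56% held the core and 3.17% held the forkhead element. The 4 promoters with a match are shown 5′ to 3′ on the strand of their gene, with the matched letters in capitals.
G6pc: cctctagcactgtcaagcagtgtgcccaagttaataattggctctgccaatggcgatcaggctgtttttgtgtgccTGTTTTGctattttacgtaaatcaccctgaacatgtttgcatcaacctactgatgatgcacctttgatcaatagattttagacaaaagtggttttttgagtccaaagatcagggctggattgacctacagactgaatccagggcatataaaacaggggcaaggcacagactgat
Irs1: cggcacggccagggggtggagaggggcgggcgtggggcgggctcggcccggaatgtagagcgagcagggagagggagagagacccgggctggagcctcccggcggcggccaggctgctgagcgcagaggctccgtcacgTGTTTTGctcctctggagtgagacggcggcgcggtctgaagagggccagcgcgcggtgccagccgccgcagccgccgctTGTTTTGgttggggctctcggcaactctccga
Irs2: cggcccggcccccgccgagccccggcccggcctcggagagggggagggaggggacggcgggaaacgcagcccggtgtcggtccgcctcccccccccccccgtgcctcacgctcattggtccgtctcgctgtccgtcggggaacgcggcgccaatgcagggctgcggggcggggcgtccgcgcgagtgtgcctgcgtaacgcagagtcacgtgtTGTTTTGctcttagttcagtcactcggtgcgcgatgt
Igfbp1: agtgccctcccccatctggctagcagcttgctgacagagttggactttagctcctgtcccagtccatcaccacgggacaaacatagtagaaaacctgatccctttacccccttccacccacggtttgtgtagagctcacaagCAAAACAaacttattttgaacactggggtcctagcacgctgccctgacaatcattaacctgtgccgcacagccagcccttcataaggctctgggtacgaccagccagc
In G6pc (chr11:101367466-101367715, plus strand) the core lay 174 to 168 bases before the start, and in Igfbp1 (chr11:7197537-7197786, plus strand) 108 to 102 bases before it. Irs1 (chr1:82291440-82291689, minus strand) held the core at 111 to 105 and again at 32 to 26 bases before the start. Irs2 (chr8:11008930-11009179, minus strand) held it at 37 to 31 bases. A match is a description of the letters and not evidence of binding, and Pck1, Fbp1, Foxo1 and Ppargc1a, for which no match was found, only lacked these letters in this window. For Ppargc1a, which has 13 transcripts in the count table, the window (chr5:51567726-51567975, minus strand) lay inside the gene's span. Other starts of Ppargc1a were not searched.

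Total counts on genes ranged from 43086184 to 47778683 per library. Hepatocyte markers were abundant in both groups, with albumin (Alb) at 41541 ± 5734 CPM in LT and 41915 ± 4367 CPM in Fpn-LKO (SD, n = 3 each). CPM are counts scaled to the TMM-adjusted library size. The deleted gene was checked first. Slc40a1 had 154, 180 and 126 CPM across LT replicates 1 to 3 against 143, 143 and 176 CPM under the Fpn-LKO label, or 0.0073 as log2 fold change (standard error, SE, 0.16, adjusted p = 0.995, edgeR quasi-likelihood test, p-values adjusted by Benjamini-Hochberg). The count of the targeted transcript was therefore not lower under the label Fpn-LKO, and each direction given here rests on the labels. The study reports its own checks of the deletion, in primary hepatocytes and by FPN staining of liver. Every fold change divides the Fpn-LKO label by LT.

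None of the 9 genes passed the adjusted threshold of 0.05 in that edgeR test, and none had an unadjusted p below 0.05. None passed the adjusted threshold with DESeq2 or with edgeR's exactTest either. Of the 17274 genes tested, 0.0232% passed the adjusted threshold (4 genes, and 0 with the replicate number as a block) and 4.8% had an unadjusted p below 0.05. The lowest unadjusted p among the members was 0.167 (Ppargc1a) and the lowest adjusted p was 0.982 in the same edgeR fit. For all 9 genes the 3 LT libraries and the 3 libraries labelled Fpn-LKO overlapped, where 10.6% of all genes tested did not (5.25% higher and 5.34% lower). Fold changes were above 1 for 6 members and below 1 for 3, with a median log2 fold change of 0.020 against -0.004 over all genes tested. With 3 mice in each group, the exact permutation test of any member has a floor of p = 0.1. A 2-fold difference in either direction lay outside the 95% interval of the fold change for 7 of the 9 genes, the exceptions being Ppargc1a and Igfbp1.

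Transcript abundance spanned a wide range. In the deposited TPM, which are scaled per transcript length and so allow levels to be compared between genes, Pck1 averaged 804 over the 6 libraries (range 575 to 1124) and Fbp1 averaged 671 (491 to 877). The ranges of these 2 enzymes overlapped, and Pck1 was above Fbp1 in 4 of 6 libraries. G6pc followed at 211 TPM (120 to 264), below Fbp1 in every library. Igfbp1 averaged 28.6 TPM (11.8 to 46.1) and Insr 19.2 TPM (14.6 to 23.6). Those 2 also overlapped, with Igfbp1 higher in 4 of 6 libraries. The signalling and transcription genes were far lower, with Irs1 at 3.76 TPM (2.18 to 5.37) and Foxo1 at 3.72 TPM (2.05 to 6.55), of which either could be the higher one in a given library. Irs2 averaged 1.84 TPM (1.19 to 2.65) and Ppargc1a 0.931 TPM (0.360 to 1.59), each below its neighbour in every library although the ranges touched. The enzymes were thus the most abundant members and the coactivator the least abundant, in libraries of both labels.

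**Figure D1:**
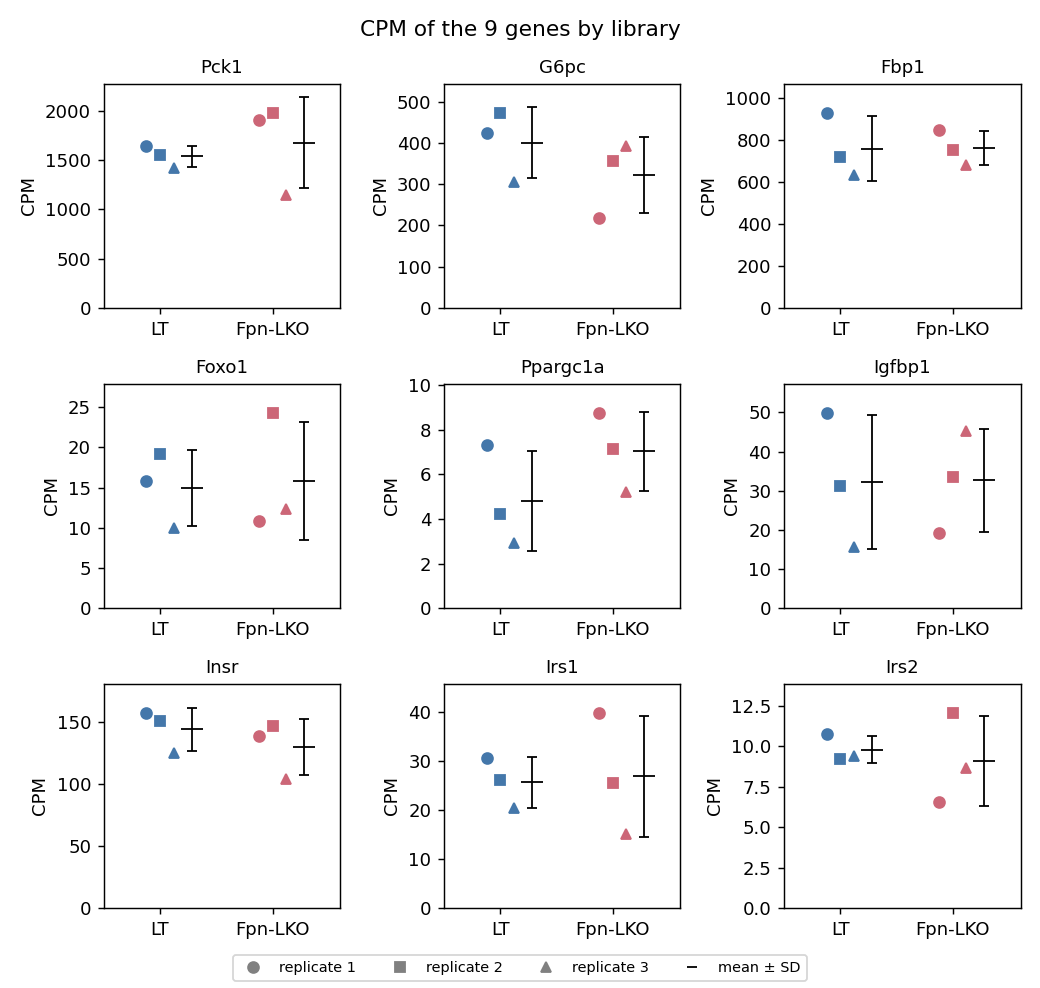
CPM (vertical axis, linear, from 0) of each of the 9 genes in the 3 LT libraries and the 3 libraries labelled Fpn-LKO. Points are libraries with a marker for each replicate number, and bars give the mean and SD. The 2 groups overlap in every panel, and the spread is widest relative to the mean for Igfbp1, from 15.6 to 49.9 CPM.

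Of the 3 enzymes, Pck1 (gene 18534, chromosome 2, 173153073 to 173159274 in GRCm38.p6) had 1639, 1555 and 1424 CPM across LT against 1905, 1979 and 1147 CPM under the Fpn-LKO label. Replicates 1 and 2 of Fpn-LKO were the highest of the 6 libraries, and replicate 3 the lowest. Means of 1539 ± 108 in LT and 1677 ± 461 CPM in Fpn-LKO (SD, n = 3 each) gave a fold change of 1.09 (95% interval 0.748 to 1.59, edgeR adjusted p = 0.995, exact permutation p = 0.9). The SD within Fpn-LKO was larger than the difference between the means.

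G6pc (gene 14377, chromosome 11, 101367716 to 101377903) had 424, 472 and 305 CPM across LT against 218, 355 and 392 CPM under the Fpn-LKO label. The lowest value was Fpn-LKO replicate 1, one of the libraries in which Pck1 was high. Mean G6pc was 401 ± 86.2 and 322 ± 91.7 CPM (SD, n = 3 each), a fold change of 0.804 (95% interval 0.533 to 1.21, edgeR adjusted p = 0.985, exact permutation p = 0.4). G6pc was the member with the most negative estimate, -0.32 on the log2 scale (SE 0.25). By qPCR in larger groups of mice, the study reports that the gluconeogenic enzyme genes it calls Pepck and G6pase were largely unchanged in Fpn-LKO liver. It reports the same for AKT phosphorylation in liver, which RNA counts do not measure.

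Fbp1 (gene 14121, chromosome 13, 62864753 to 62888298) had 928, 716 and 632 CPM across LT against 847, 753 and 682 CPM under the Fpn-LKO label. All 3 Fpn-LKO values fell inside the LT range. The means of 759 ± 152 and 761 ± 82.6 CPM (SD, n = 3 each) gave a fold change of 1.00 (95% interval 0.745 to 1.35, edgeR adjusted p = 0.997). The lncRNA Gm38679 lies within the span of Fbp1 and had at most 732 reads in a library, and the strand setting of the counting is not given, so reads of the pair may not be fully separated.

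Foxo1 itself (gene 56458, chromosome 3, 52268337 to 52350109) had 15.8, 19.2 and 9.91 CPM across LT against 10.9, 24.3 and 12.3 CPM under the Fpn-LKO label, from 410 to 1135 reads. Fpn-LKO replicate 2 was the highest library and LT replicate 3 the lowest. Mean Foxo1 was 15.0 ± 4.71 and 15.8 ± 7.37 CPM (SD, n = 3 each), a fold change of 1.06 (95% interval 0.598 to 1.87, edgeR adjusted p = 0.995). Its spread within groups on the log2 scale was at percentile 95.4 among the 6879 genes with a mean of at least 10 CPM.

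Ppargc1a (gene 19017, chromosome 5, 51454249 to 52115853) had 7.31, 4.23 and 2.92 CPM across LT against 8.76, 7.13 and 5.22 CPM under the Fpn-LKO label. LT replicate 1 was above 2 of the 3 Fpn-LKO libraries, and the other LT libraries were below all of them. Means of 4.82 ± 2.25 in LT and 7.04 ± 1.78 CPM in Fpn-LKO (SD, n = 3 each) gave a fold change of 1.46 (95% interval 0.821 to 2.58, edgeR adjusted p = 0.982, exact permutation p = 0.3). This was the largest positive estimate among the members, 0.54 on the log2 scale (SE 0.35). Leaving out each library in turn gave estimates from 0.29 to 0.98. The highest was without LT replicate 1 (0.98, SE 0.31, edgeR unadjusted p = 0.0184, adjusted p = 0.984). With all 6 libraries and the replicate number as a block the estimate was 0.61 (SE 0.20, edgeR unadjusted p = 0.0253, adjusted p = 0.954). Ppargc1a was higher under the Fpn-LKO label in 3 of 3 same-numbered pairs, although whether the numbers pair the mice was not settled. The unadjusted p thus passed 0.05 in some fits and the adjusted p in none of those run.

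At the receptor, Insr (gene 16337, chromosome 8, 3150922 to 3279649) had 158, 151 and 125 CPM across LT against 139, 147 and 104 CPM under the Fpn-LKO label. Replicate 3 was the lowest library of each group. The means of 144 ± 17.3 and 130 ± 22.9 CPM (SD, n = 3 each) gave a fold change of 0.899 (95% interval 0.690 to 1.17, edgeR adjusted p = 0.991), the narrowest interval of the 9 members.

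The docking proteins IRS1 and IRS2 carry the signal from the receptor to PI3K. Irs1 (gene 16367, chromosome 1, 82233105 to 82291439) had 30.6, 26.1 and 20.3 CPM across LT against 39.8, 25.6 and 15.1 CPM under the Fpn-LKO label, so Fpn-LKO held both the highest and the lowest library. Its fold change was 1.04 (95% interval 0.613 to 1.78, edgeR adjusted p = 0.995) from means of 25.7 ± 5.19 and 26.8 ± 12.4 CPM (SD, n = 3 each). Irs2 (gene 384783, chromosome 8, 10984681 to 11008929) had 10.7, 9.24 and 9.38 CPM across LT against 6.56, 12.1 and 8.62 CPM under the Fpn-LKO label. For Irs2 too the LT libraries lay inside the Fpn-LKO range, and the fold change was 0.928 (95% interval 0.641 to 1.34, edgeR adjusted p = 0.995). The lncRNA 9530052E02Rik, which overlaps Irs2, had at most 3 reads.

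Igfbp1 (gene 16006, chromosome 11, 7197787 to 7202546), a secreted binder of insulin-like growth factors whose transcription insulin represses, had 49.9, 31.1 and 15.6 CPM across LT against 19.1, 33.5 and 45.3 CPM under the Fpn-LKO label. Each group ran from a low to a high library, over 3.19-fold within LT and 2.37-fold within Fpn-LKO. Mean levels were close, 32.2 ± 17.2 and 32.7 ± 13.1 CPM (SD, n = 3 each), a fold change of 1.01 (95% interval 0.497 to 2.07, edgeR adjusted p = 0.995). Its spread within groups was at percentile 97.7 of the same 6879 genes, the highest of the members with at least 10 CPM, and its interval was the widest of all 9.

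**Figure D2:**
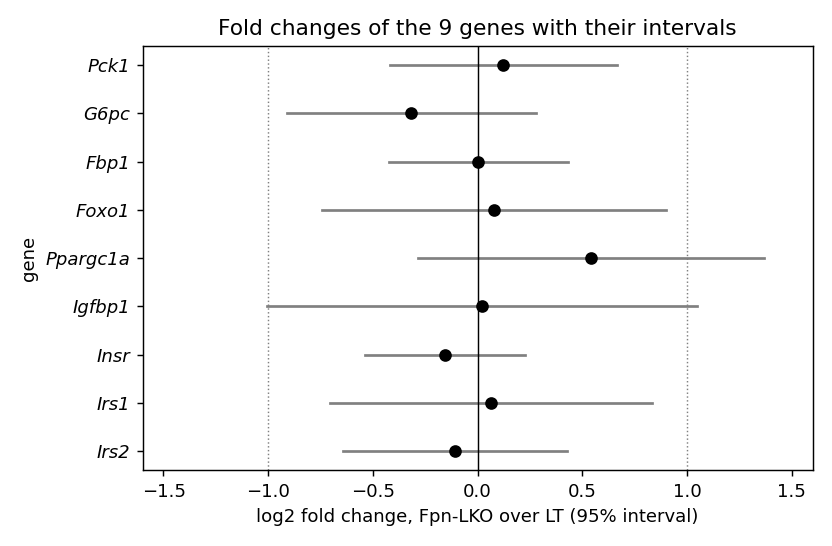
Log2 fold change of each of the 9 genes, libraries labelled Fpn-LKO over LT (horizontal axis), with 95% intervals from the edgeR quasi-likelihood fit. Dotted lines mark a 2-fold difference, and every interval includes 0, from -0.32 for G6pc to 0.54 for Ppargc1a as point estimates.

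The variation between mice did not follow 1 common order across the members. LT replicate 3 was the lowest library for 4 members (Fbp1, Foxo1, Ppargc1a and Igfbp1) and Fpn-LKO replicate 3 for another 3 (Pck1, Insr and Irs1). Fpn-LKO replicate 1 was lowest for G6pc and Irs2 and highest for Ppargc1a and Irs1. The FoxO1 target genes G6pc and Igfbp1, both with the insulin response core shown above, were low together in LT replicate 3 and Fpn-LKO replicate 1. Foxo1, for which no match was found, was low in the same libraries, 0.56 and 0.43 below its mean on the log2 scale (deviations of -0.56 and -0.43). In Fpn-LKO replicate 1, G6pc was 0.69 and Igfbp1 0.64 below its mean over the 6 libraries on the log2 scale (deviations of -0.69 and -0.64), while Pck1 was 0.27 above. Of the others with the core, Irs2 was at its lowest there and Irs1 at its highest. In Fpn-LKO replicate 3 the order was turned, with Pck1 at -0.46, G6pc at 0.16 and Igfbp1 at 0.61. Foxo1 was at -0.25 there, below its mean, unlike G6pc and Igfbp1. Pck1, Insr and Irs1 shared their lowest library there. Over the 6 libraries the Pearson r of Foxo1 was 0.578 with G6pc and 0.526 with Igfbp1.

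**Figure D3:**
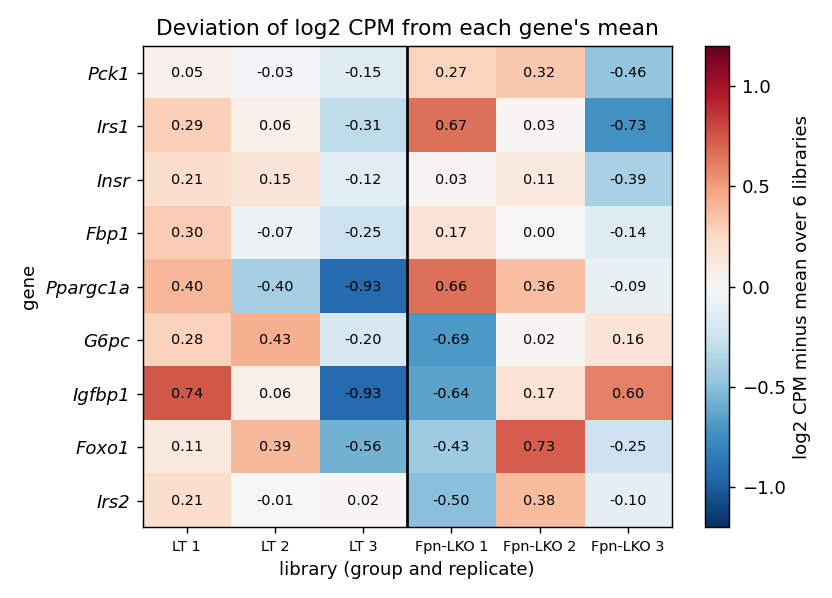
Heat map of log2 CPM minus the mean over the 6 libraries (colour scale) for the 9 genes (rows) in each library (columns). Igfbp1 runs from -0.93 in LT replicate 3 to 0.74 in LT replicate 1, and G6pc and Pck1 have opposite signs in Fpn-LKO replicates 1 and 3.

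The genes whose levels followed a member most closely over the 6 libraries were looked up among the other 6878 genes with a mean of at least 10 CPM. With 6 points shared in library and depth, a high coefficient is common, and between 45 and 58 genes exceeded a Pearson r of 0.9 with each of the 4 members examined. Among those nearest to Pck1 were Lipg (r = 0.983) and Laptm4b (r = 0.980). For G6pc the nearest were the mitochondrially encoded COX3 (r = 0.991), Atxn3 (r = 0.982) and Cdc27 (r = 0.979), for Igfbp1 they were G0s2 (r = 0.983), Srek1ip1 (r = 0.975) and Zfp729b (r = 0.971), and for Foxo1 they were Zfyve1 (r = 0.991), Trp53inp2 (r = 0.986) and Srcap (r = 0.975). No gene appeared in more than 1 of these 4 lists.

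The genes around the members were then counted by list. Among 26 other gluconeogenic enzymes and transporters tested, 1 had an unadjusted p below 0.05 in the direction of higher values and 2 in the direction of lower values, where the background was 2.62% higher and 2.19% lower. No gene of this or any other list passed the adjusted threshold in the edgeR quasi-likelihood test. The higher one was Sds, serine dehydratase, which feeds serine carbon into pyruvate, with 16.9, 25.5 and 32.1 CPM across LT against 87.2, 64.3 and 28.2 CPM under the Fpn-LKO label. Fpn-LKO replicate 3 lay within the LT range, and the log2 fold change was 1.27 (SE 0.41, edgeR unadjusted p = 0.0152, adjusted p = 0.982). The lower ones were Eno1, an enolase (log2 fold change -0.33), and Slc25a1, the mitochondrial citrate carrier (-0.36). The aminotransferase genes Got1 (0.83, SE 0.38) and Tat (0.63, SE 0.44) had the next largest estimates and did not pass. Pcx, pyruvate carboxylase, and Slc37a4, the partner of G6pc that carries glucose 6-phosphate into the endoplasmic reticulum, had log2 fold changes of -0.12 and -0.17. The list's median was -0.063.

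In the opposite direction of the pathway, 23 genes of glucose uptake and glycolysis had a median log2 fold change of 0.005. Only Pdk1, a kinase that inhibits pyruvate dehydrogenase, had an unadjusted p below 0.05 and was lower, beside 2.19% of all genes tested (log2 fold change -0.37, edgeR unadjusted p = 0.0314, adjusted p = 0.982). Pfkfb3 (0.62) and Pfkp (0.57), a regulator and an isoform of phosphofructokinase, did not pass. Among 17 genes of glycogen metabolism, Ugp2, which makes the UDP-glucose for glycogen, had 352, 281 and 258 CPM across LT against 547, 396 and 356 CPM under the Fpn-LKO label. Its groups did not overlap, where 5.25% of all genes tested were higher without overlap. The log2 fold change was 0.54 (SE 0.20, edgeR unadjusted p = 0.0287, adjusted p = 0.982), beside 2.62% of all genes tested that were higher with an unadjusted p below 0.05. Ppp1r3c, a glycogen-targeting subunit of protein phosphatase 1, had 0.42 and liver glycogen synthase Gys2 had -0.41, and neither passed.

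Of the 23 genes of the insulin cascade besides the members, none had an unadjusted p below 0.05 and the median log2 fold change was 0.038. Akt2, the main AKT kinase of insulin action in liver, had 49.0 ± 4.32 CPM in LT and 50.7 ± 2.90 CPM in Fpn-LKO (SD, n = 3 each). The largest estimates were Sgk2 (0.78, SE 0.46), Pik3r2 (0.55, SE 0.26) and Gab1 (-0.37, SE 0.17). Among 24 inhibitors of insulin signalling the median was 0.006. Enpp1, which binds and inhibits the insulin receptor, was the one with an unadjusted p below 0.05, lower, beside 2.19% of all genes tested (log2 fold change -0.29, edgeR unadjusted p = 0.0446, adjusted p = 0.982). The largest estimates with a mean of at least 1 CPM were Phlpp2 (0.44), Trib2 (-0.33) and Trib1 (0.32), none of which passed.

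The other FoxO factors and the partners of FoxO1 in gluconeogenic transcription, 33 genes tested, had a median log2 fold change of 0.057. Foxo3 and Foxo4 had -0.13 and -0.02. The 2 genes with an unadjusted p below 0.05 were higher, beside 2.62% of all genes tested. They were Hnf4a, a nuclear receptor of hepatocyte identity, and Foxa1, a forkhead factor that opens chromatin. Hnf4a had 239, 250 and 265 CPM across LT against 310, 344 and 286 CPM under the Fpn-LKO label. Every Fpn-LKO library was above every LT library, as for 5.25% of all genes tested (log2 fold change 0.32, SE 0.12, edgeR unadjusted p = 0.0328, adjusted p = 0.982). Foxa1 had 4.98, 5.36 and 3.84 CPM across LT against 6.08, 9.68 and 5.80 CPM under the Fpn-LKO label (log2 fold change 0.60, edgeR unadjusted p = 0.0468, adjusted p = 0.982). Crtc2, the glucagon-responsive coactivator (0.61), and Nr0b2, the repressor SHP (0.45), did not pass.

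Among 25 other FoxO target genes, Cdkn1a alone had an unadjusted p below 0.05 and was higher, beside 2.62% of all genes tested. Its mean was 0.399 CPM across LT against 0.947 CPM under the Fpn-LKO label (log2 fold change 1.23, SE 0.52, edgeR unadjusted p = 0.0462, adjusted p = 0.982). The median of the list was 0.049. Gadd45b had the most negative estimate (-0.89, SE 0.78), which rested on LT replicate 1 with 7.07 CPM against 0.808 and 1.52 CPM in the others of that group, and was 0.54 without it. Txnip (-0.54) and Cited2 (-0.53) did not pass. The hepatokine genes that the study connects with FoxO1 did not pass. In larger groups of mice, the study reports a rise of both mRNAs in liver under HFD that FPN loss made greater. It also reports higher serum levels of both and more hepatic FoxO1 protein, which RNA counts do not measure. Ahsg, fetuin-A, had 4784 ± 433 CPM in LT and 5114 ± 432 CPM in Fpn-LKO, and Lect2 had 116 ± 29.4 and 146 ± 16.9 CPM (SD, n = 3 each). Their log2 fold changes were 0.10 (SE 0.19, edgeR adjusted p = 0.995) and 0.33 (SE 0.20, edgeR adjusted p = 0.982).

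The list that lay farthest from 0 among the pathway lists of more than 2 genes was that of genes insulin induces in liver, mostly of fatty acid synthesis, with a median log2 fold change of -0.46 over 11 genes. Of these, 3 had an unadjusted p below 0.05, all lower, beside 2.19% of all genes tested, and none passed the adjusted threshold. Acaca, acetyl-CoA carboxylase, had 85.1, 118 and 74.9 CPM across LT against 58.5, 53.7 and 57.2 CPM under the Fpn-LKO label (log2 fold change -0.71, SE 0.17, edgeR unadjusted p = 0.00382, adjusted p = 0.747). Fasn, fatty acid synthase, had 88.8, 177 and 79.8 CPM across LT against 47.2, 72.2 and 58.2 CPM under the Fpn-LKO label (log2 fold change -0.96, SE 0.32, edgeR unadjusted p = 0.0175, adjusted p = 0.982). Acly, ATP citrate lyase, had a log2 fold change of -0.54 (edgeR unadjusted p = 0.0332). For these 3 genes every Fpn-LKO library was below every LT library, as for 5.34% of all genes tested. Scd1, stearoyl-CoA desaturase, went the other way in its estimate (1.66, SE 1.01), from 283, 167 and 64.0 CPM in LT to 1222, 357 and 46.1 CPM in Fpn-LKO, and was 0.24 without Fpn-LKO replicate 1. The enzymes of fatty acid synthesis and the gluconeogenic members are both under insulin control, and the test of the difference between the lists was not made. The study reports, by qPCR in larger groups of HFD-fed mice, decreased expression of lipogenic genes in Fpn-LKO liver.

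**Figure D4:**
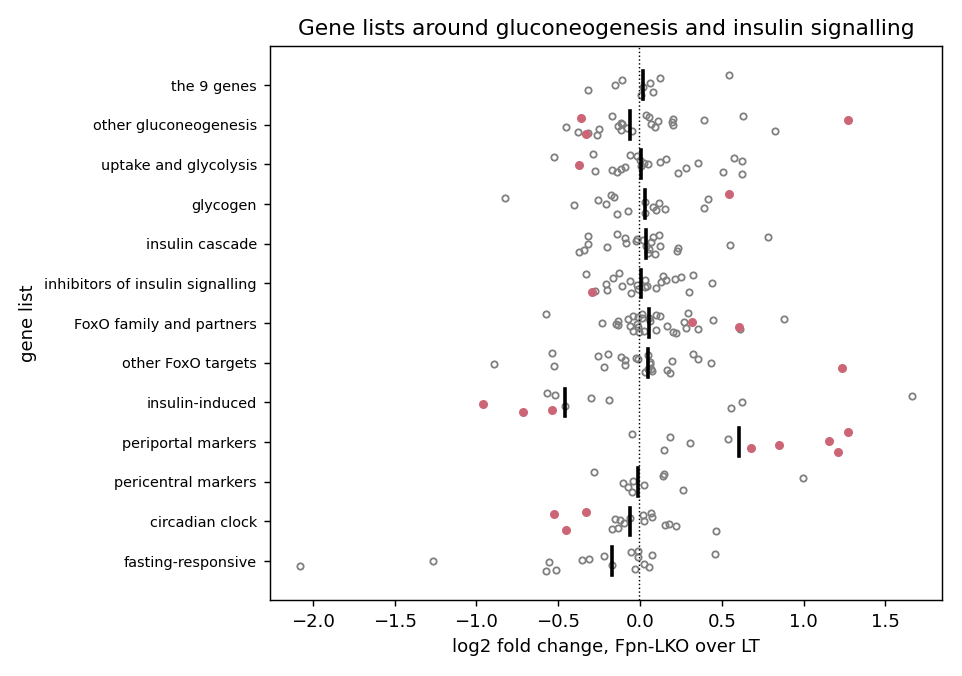
Log2 fold changes (horizontal axis) of the genes in each list (rows). Open grey points have an unadjusted edgeR p of 0.05 or more, filled red points a p below 0.05, black bars give the list median and the dotted line the median of all genes tested, -0.004. The 9 members have no filled point, the insulin-induced genes have a median of -0.46 and the periportal markers one of 0.61.

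Gluconeogenesis is concentrated in the hepatocytes around the portal vein, so the zone markers were examined beside it. Of 10 periportal markers, among them Sds from above, 5 had an unadjusted p below 0.05 and all 5 were higher (Sds, Gls2, Ass1, Ctsc and Aldh1b1). Of all genes tested, 2.62% were higher at such a p. The median of the periportal markers was 0.61, and none of them passed the adjusted threshold. Their summed level was 2533, 2525 and 2415 CPM across LT against 3437, 3217 and 2657 CPM under the Fpn-LKO label, without overlap, at the smallest p that an exact permutation test can give here (0.1). Without LT replicate 1 or without Fpn-LKO replicate 1 the count of markers with an unadjusted p below 0.05 was 2, and without LT replicate 2 it was 3. Sds, Ass1 and Aldh1b1 overlapped between groups, and Gls2 and Ctsc did not, where 5.25% of all genes tested were higher without overlap. Ctsc had 59.7, 60.7 and 120 CPM across Fpn-LKO replicates 1 to 3. It was thus highest in replicate 3, where Sds, Gls2, Ass1 and Aldh1b1 had their lowest Fpn-LKO value. The summed Kupffer cell markers were also highest in that library, at 510 CPM, and the part of such cells in Ctsc was not tested. Pck1, G6pc and Fbp1, which are also higher in periportal than in pericentral hepatocytes, had log2 fold changes of 0.12, -0.32 and 0.0038. The 10 pericentral markers had a median of -0.010, and their sums overlapped, from 11625 to 13820 CPM in LT and from 11337 to 13598 CPM in Fpn-LKO. In bulk tissue, a change in the number of cells of a type and a change in RNA per cell cannot be told apart.

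Feeding and the hour of the day both set the level of the members. The 17 genes known to respond to fasting had summed levels of 19876, 14774 and 8142 CPM in LT and of 11964, 11632 and 12237 CPM under the Fpn-LKO label (exact permutation p = 0.7). Within LT, replicate 1 had the highest and replicate 3 the lowest sum, as they had for 6 members (Pck1, Fbp1, Ppargc1a, Insr, Irs1 and Igfbp1). Within Fpn-LKO the sums lay close together and replicate 3 had the highest, whereas 5 of those 6 members, all but Igfbp1, were lowest there. None of the 17 had an unadjusted p below 0.05, and their part in the members' spread was not tested. Of 17 clock genes tested, 3 had an unadjusted p below 0.05 and were lower, led by Per3, with 35.2, 38.1 and 37.4 CPM across LT against 25.2, 27.7 and 23.9 CPM under the Fpn-LKO label (log2 fold change -0.53, SE 0.11, edgeR unadjusted p = 0.00129, adjusted p = 0.570). Tef and Bhlhe40 were the others, with log2 fold changes of -0.33 and -0.45. The summed clock genes, which include these 3, had 686, 701 and 702 CPM across LT against 607, 661 and 657 CPM under the Fpn-LKO label. The sums did not overlap (exact permutation p = 0.1). Tef alone had a mean of 176 CPM in LT and 140 CPM in Fpn-LKO. Over the list the median log2 fold change was -0.063, with 8 estimates above 0 and 9 below. Arntl (0.47), Nr1d1 (-0.15), Dbp (-0.10), Per1 (0.07) and Per2 (0.02) overlapped between groups. Of all genes tested, 2.19% were lower at an unadjusted p below 0.05.

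**Figure D5:**
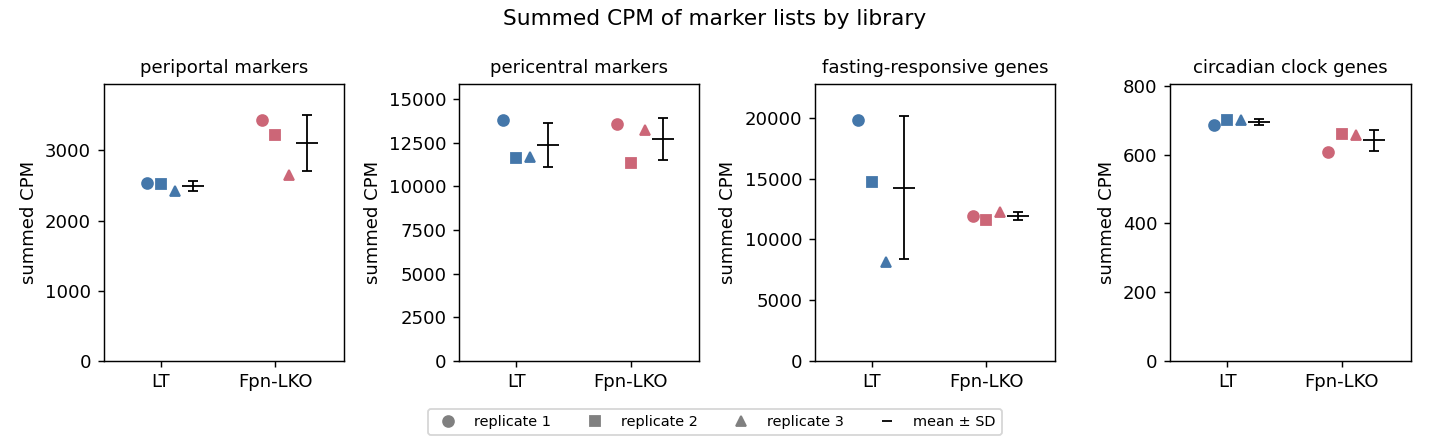
Summed CPM (vertical axes) of periportal markers, pericentral markers, fasting-responsive genes and clock genes in each library, LT against the libraries labelled Fpn-LKO. Periportal sums are higher and clock sums lower in every Fpn-LKO library than in every LT library, and fasting-responsive sums in LT run from 8142 to 19876 CPM.

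Markers of other cells were at most a small share. The summed levels of the 8 Kupffer cell markers (287, 386 and 296 CPM in LT, 285, 239 and 510 CPM in Fpn-LKO) and the 9 stellate and endothelial markers (390.4 to 431 CPM over all 6 libraries) overlapped between groups. In the latter list Pdgfrb and Lyve1 had an unadjusted p below 0.05, both higher, beside 2.62% of all genes tested. Blood markers overlapped as well (351 to 941 CPM in LT, 474 to 1243 CPM in Fpn-LKO). Alas2 of the blood list had an unadjusted p below 0.05, higher, beside the same 2.62%. The defining markers of cholangiocytes (Krt19, Krt7), T cells (Cd3e, Cd3g), pancreas (Prss2, Cpa1, Pnlip, Ins1, Ins2) and adipocytes (Adipoq, Lep, Plin1) had too few reads to be tested. Of these lists, 3 of 6, 3 of 8, 2 of 9 and 1 of 5 markers were tested. Among them the pancreatic gene Cela2a had an unadjusted p below 0.05, lower, beside 2.19% of all genes tested. It had a mean of 0.926 CPM in LT and 0.186 CPM in Fpn-LKO without overlap (edgeR unadjusted p = 0.0406, adjusted p = 0.982). Spp1, in the cholangiocyte list, gave a summed level of 84.4 CPM in LT replicate 3 against 12.4 to 29.8 CPM in the others, and the pancreatic elastase gene Cela1 was highest in that library too, with a summed pancreas level of 28.5 CPM against 11.1 to 16.5 CPM. Of the other tested markers of the cholangiocyte and pancreas lists, Cela2a was highest in LT replicate 3 too, whereas Epcam and Sox9 were not. Epcam had 0.435 CPM in LT replicate 3 against 0.382 and 0.485 CPM in LT replicates 1 and 2. Sox9 had 0.846 CPM against 0.341 and 0.854 CPM in the same libraries. LT replicate 3 is also the lowest library for 4 members, and the part of other tissue in that was not tested.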

How the data were processed

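Liver RNA was sequenced, 1 library per sample, in 3 LT and 3 Fpn-LKO mice. The submitters' processing notes name bcl2fastq 2.20.0, FastQC 0.11.7, HISAT2 2.1.0, Bowtie2 2.3.4.1, StringTie 2.1.3b and the build mm10. The authors deposited unnormalized read counts per gene, which StringTie derives from coverage. They also deposited FPKM, not used for any value here, and TPM, which add to the same total in every library and were used to compare levels between genes. The labels name an mRNA kit and the study's methods a total RNA kit with rRNA removal. Of the counts, 3.29% to 10.2% were on a few RNAs without a poly(A) tail (Rn7s1, Rn7s2, Rn7sk, Rpph1 and Rmrp). Other RNAs of that kind were not added up. The abundant Rn7s1 took 6.68% to 18.6% of TPM. A difference in the share of such RNAs moves the TPM of every other gene, an effect that TMM scaling reduces in CPM.

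Counts were tested with edgeR 4.0.16 in R 4.3.3 (quasi-likelihood test, TMM scaling, 95% intervals from the test's standard error), keeping genes that had a read in all libraries or all but 1, the filter of the study's methods. Adjustment by Benjamini-Hochberg ran over all 17274 genes tested. The methods name exactTest, which was an alternative. The common biological coefficient of variation was 0.275, so for members with many reads the spread between mice and not the depth set the precision. No same-group libraries were duplicates (chi-square per degree of freedom 54.5 to 265). Other alternatives were RLE, DESeq2 1.42.0, 2 filters, the replicate block, limma 3.58.1 on log2 TPM with a pseudocount of 1 or 0.1 where the mean TPM reached 1, and leaving out each library. Figures used matplotlib 3.10.9. Tests were tried on simulated data.

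The members and gene lists were chosen with earlier results of these data known. Beside the members and Slc40a1, the rule for naming took up to 3 genes of each pathway list with the largest absolute log2 fold change at a mean of at least 1 CPM, and the 3 genes most like Pck1, G6pc, Igfbp1 and Foxo1. Some genes the rule takes are not reported here. Further genes of the lists were named with their values known. The list genes Gyk, Smek1, Gm6484 and Tf were not found under these names. Whether the replicate numbers pair the mice was not settled. The deviations of same-numbered libraries had correlations of 0.129, -0.009 and 0.045 over all genes tested, and of 0.338, 0.109 and 0.238 over the 6879 genes with a mean of at least 10 CPM. The labels tie the numbers to no shared litter or day, and the fit without the block is the main one.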

Additional observations from a re-analysis of the deposited data

How the results depend on the processing

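Under all 14 alternatives no member passed the adjusted threshold, although Ppargc1a, with a mean TPM below 1, was not in the 2 limma fits. Over all genes, 4 passed in the main test, 72 with DESeq2, 63 with exactTest, 7 with limma on log2(TPM + 0.1), 0 with the replicate block, and between 0 and 6 when a library was left out, the cause of which was not tested. One member had an unadjusted p below 0.05 with the block (1 against 0, Ppargc1a, log2 fold change 0.61, edgeR unadjusted p = 0.0253, adjusted p = 0.954) and when leaving out libraries the count was 0 to 1. The check of the pairing depended on the genes used: over all genes tested only replicates 1 had a correlation over 0.1, whereas over genes with a mean of at least 10 CPM all 3 pairs did and each LT library correlated best with its own number. Irs1 was -0.0226 with the block, against 0.06. Log2 fold changes that changed sign when a library was left out ranged from -0.11 to 0.14 for Slc40a1, from -0.0124 to 0.34 for Pck1, from -0.11 to 0.17 for Fbp1, from -0.37 to 0.30 for Foxo1, from -0.34 to 0.35 for Irs1, from -0.37 to 0.0806 for Irs2, from -0.31 to 0.48 for Igfbp1, from -0.0441 to 0.72 for Ppp1r3c and from -1.34 to 0.54 for Gadd45b. G6pc, Insr and Ppargc1a kept their sign throughout. With limma the median of all genes moved to 0.08 and 0.10 on log2(TPM + 1) and log2(TPM + 0.1), and the 3 clock genes and, on log2(TPM + 0.1), 2 of the 3 insulin-induced genes no longer had an unadjusted p below 0.05 (counts of 0 and 1). With 3 libraries a group, the 95% interval reached 0.38 to 1.03 to either side of the members' estimates on the log2 scale, which limits what could be detected.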
